A study of Bos taurus and Bos indicus with 3 samples.

Results

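The genes described here are TAC3, DIRAS2, WLS and ADAM11, 4 genes with roles in signalling between or within cells. They were selected on their measured levels, much lower with Cholistani than with Holstein and Jersey, so the difference between breeds is given for them as a description only. ADAM11 was not high in the taurine libraries. Its 28.2 FPKM in Holstein and 69.6 FPKM in Jersey lay below the medians of models above 0, 91.6 and 89.6 FPKM. Each symbol, or for TAC3 the protein entry name TKNK_BOVIN, stood on 1 of the 25968 gene models. All 4 were among the 15284 models that had an estimate in every library and a value above 0 in at least 1. Leukocyte mRNA of 3 cattle breeds was sequenced to compare their transcriptomes, as 1 library per breed. Blood from the tail vein of 40 Holstein and 7 Jersey cows (Bos taurus, kept at university herds in Wisconsin) and of 45 Cholistani cows (Bos indicus, kept at a farm in Punjab, Pakistan) was pooled within each breed before the white cells were spun down and freed of red cells by lysis. The Cholistani RNA alone was transported in a dry storage matrix. Breed, herd, place and transport therefore cannot be told apart, and with 1 library per breed no test, p-value or error of a gene's level could be computed. Ages of the cows and treatments were not given in the sources used here.

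TAC3 encodes the precursor of neurokinin B, a tachykinin peptide best known from hypothalamic neurons that control reproduction, where it acts mainly through the receptor encoded by TACR3. DIRAS2 encodes a small GTPase of the Ras family, described mostly in brain. WLS encodes Wntless, the membrane protein that carries lipid-modified Wnt proteins from the Golgi to the cell surface and is recycled by the retromer complex. ADAM11 encodes a membrane protein of the disintegrin and metalloprotease family that is known from neurons, has no protease activity of its own and binds secreted LGI proteins.

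Of these genes, TAC3 was also measured by real-time PCR in the study, in the same Holstein and Cholistani RNA that was sequenced. The paper reports the same outcome from PCR as from sequencing for every gene assayed, and its text gives no value for TAC3. The TAC3 primers are the only designed sequences for any of the 4 genes in the sources used here. They are shown as the study listed them, 5′ to 3′, with no part in capitals.
TAC3 forward primer: tcacagcaagaaggactc
TAC3 reverse primer: tcacagcaagaaggactc
As listed, both primers had the same 18 bases, whereas 0 of the other 9 primer pairs had identical members. Whether this is an error of the list was not tested.

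TAC3 was by far the most abundant of the 4 genes. Its model on chromosome 5 of btau4.0, from 60921436 to 60928338, had 2677 FPKM in Holstein, 2953 FPKM in Jersey and 442 FPKM in Cholistani. FPKM is a fragment number scaled to transcript length and to the library, here by upper-quartile normalization, and the library sums of FPKM were not equal. The taurine values lay close together, with Jersey 1.10 times Holstein, and the Cholistani value was 6.06 times lower than Holstein and 6.68 times lower than Jersey. The log2 ratio of FPKM + 1, the scale used for ratios below, was -2.60 against Holstein and -2.74 against Jersey. Within its own library TAC3 lay above 97.8% of the models with a value above 0 in Holstein, above 97.9% in Jersey and above 82.6% in Cholistani, a position that does not depend on how the libraries were scaled against each other.

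Other abundant models also had a low Cholistani value. Of 707 models with at least 1000 FPKM in both taurine libraries, 32 had a Cholistani value lower than each of them by at least 2-fold. TAC3 was number 4 of these by its ratio to Holstein, a place that restates the values it was selected on. Ahead of it were TUBB1, the platelet beta-tubulin gene (4430, 2997 and 551 FPKM in the order Holstein, Jersey, Cholistani), a merged model of ATP5E and a microRNA over the same span as TUBB1, and COX4I1, a subunit of cytochrome c oxidase (8930, 9460 and 1338 FPKM). TUBB1 and the merged model share their span on chromosome 13, so fragments there may have been divided between them.

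DIRAS2 had the same level in both taurine libraries and the lowest Cholistani to Holstein ratio of the genes here with a value above 0 in every library. It had 220.2 FPKM in Holstein, 220.4 FPKM in Jersey and 19.8 FPKM in Cholistani, on chromosome 8 from 91584078 to 91584749. Its Cholistani value was 11.1 times lower than either taurine value, and the log2 ratio was -3.41 in both comparisons. By rank within the library it lay above 73.2% of models in Holstein and above 73.3% in Jersey, but above only 19.2% in Cholistani. Of 3361 models with at least 220.2 FPKM, the Holstein value of DIRAS2, in both taurine libraries, 13 had a ratio as low or lower in both comparisons. DIRAS2 is included, and 10 of these models were listed at 0 in Cholistani. As DIRAS2 was selected on these values, the count is a description only. The model spans 672 bases, the shortest of the 4, and its FPKM is an estimate over that short stretch.

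WLS had a different level in each library. It had 253 FPKM in Holstein, 142 FPKM in Jersey and 36.8 FPKM in Cholistani, on chromosome 3 from 82660405 to 82776067. The Jersey value was 1.78 times lower than the Holstein value, which is less than 2-fold. The Cholistani value was 6.87 times lower than Holstein and 3.86 times lower than Jersey, with log2 ratios of -2.75 and -1.92. WLS lay above 76.5% of models in Holstein, 62.4% in Jersey and 30.2% in Cholistani, so its position shifted between the taurine libraries as well.

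ADAM11 was the least abundant and the least even between the taurine libraries. It reached 28.2 FPKM in Holstein and 69.6 FPKM in Jersey, with a listed 0 in Cholistani, and its model lies at 45918088 to 45935962 of chromosome 19. No ratio is given against a value of 0, because the number of fragments behind it is not known. Jersey was 2.47 times higher than Holstein, a log2 ratio of 1.27. Of 9776 models with at least 28.2 FPKM, the Holstein value of ADAM11, in both taurine libraries, 108 were listed at 0 in Cholistani. Of these, 12 carried a single gene name, ADAM11 included. Models below ADAM11 in Jersey are thus counted as well. ADAM11 lay above 24.1% of models in Holstein and 43.8% in Jersey, the lowest positions of the 4 genes in the taurine libraries.

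**Figure D1:**
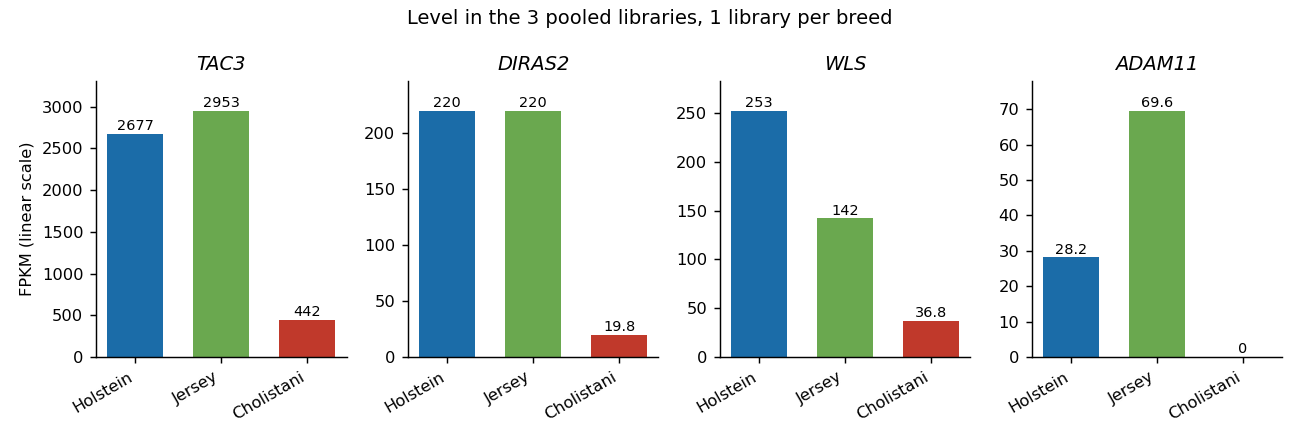
FPKM (linear axes from 0, a separate scale for each gene) of TAC3, DIRAS2, WLS and ADAM11 in the Holstein, Jersey and Cholistani libraries, 1 bar per library and no error bars because there are no replicates. The taurine bars are level for DIRAS2, nearly so for TAC3 and unequal for WLS and ADAM11, and the Cholistani bar is the lowest of each panel.

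All 4 genes had Cholistani values below each taurine value by at least 2-fold, ADAM11 through its listed 0, which is the pattern they were chosen for, so nothing is read from this count. Among all models, 13.7% were lower by that margin than Holstein and 19.7% higher, 14.2% were lower than Jersey and 17.2% higher, and 8.89% were lower than both. Among the 10510 models with at least 20 FPKM in both taurine libraries, as these genes have, 9.51% were lower than Holstein, 8.61% lower than Jersey and 6.96% lower than both. Both comparisons use the same Cholistani library. Between the taurine libraries 1 of the 4 genes, ADAM11, passed 2-fold, where 7.99% of all models were at least 2-fold higher in Jersey and 4.7% lower.

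**Figure D2:**
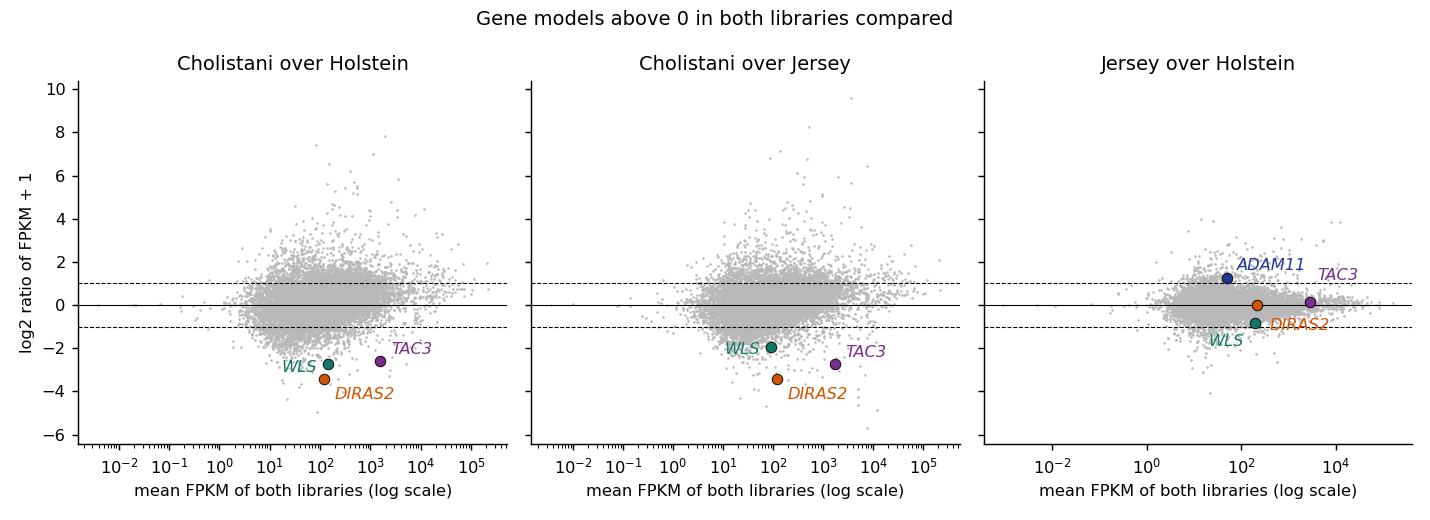
Log2 ratio of FPKM + 1 against mean FPKM (log axis) for gene models above 0 in both libraries compared (grey), with the 4 genes coloured and dashed lines at a 2-fold ratio. TAC3, DIRAS2 and WLS lie at -2.60, -3.41 and -2.75 for Cholistani over Holstein, while for Jersey over Holstein they lie at 0.14, 0.00 and -0.83, and ADAM11, drawn only there, at 1.27.

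The order of the genes by level, which FPKM allows because it is given per length, differed between the libraries. In Holstein it was TAC3, WLS, DIRAS2 and ADAM11, with WLS 1.15 times DIRAS2. In Jersey WLS and DIRAS2 changed places, with WLS at 0.645 times DIRAS2. In Cholistani the order was again that of Holstein, with WLS 1.86 times DIRAS2. TAC3 was 12.2 times DIRAS2 in Holstein, 13.4 times in Jersey and 22.3 times in Cholistani. These genes thus did not keep a fixed proportion to each other, and without replicates it cannot be said which neighbours in the order differ beyond error.

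The rest of the tachykinin system was little represented. Of 13 genes listed for it, 9 were found by name, 5 had a value above 0 in any library and 4 were listed at 0 throughout. Substance P precursor TAC1 was listed at 0 in every library, as were KISS1, its receptor gene KISS1R and the opioid receptor gene OPRK1, which take part with neurokinin B in the control of reproduction. Of the tachykinin receptors TACR2 was found, at 2.69 FPKM in Jersey and listed at 0 in Holstein and Cholistani. No model carried the names TACR1 or TACR3, and these were not analysed here. Among peptidases that can cleave tachykinins, ECE1 was similar in Holstein (517 FPKM) and Cholistani (514 FPKM) and lower in Jersey (342 FPKM), unlike TAC3. ACE had 17.0, 6.46 and 33.0 FPKM and neprilysin, MME, at most 4.16 FPKM. With TAC3 left out, 0 of the 4 remaining genes with a value were lower by at least 2-fold than both taurine values. The median log2 ratio of these 4 was 0.40 against Holstein and 1.39 against Jersey. Only 2 of them, ECE1 and ACE, were above 0 in every library. The medians include TACR2, at 0 in Holstein and Cholistani, and MME, at 0 in Jersey, so no direction is read from them.

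Of 34 genes listed for the Ras subfamily and the partners of DIRAS proteins, 15 were found and 11 had a value, DIRAS2 included. Of the other 10, 0 were lower than both taurine values by at least 2-fold, beside 8.89% of all models. With the FPKM sums of the libraries made equal, 6 of the 11, DIRAS2 included, were lower than in Holstein, beside 4199 of all 15284 models. The most abundant were the Rap GTPases, with 1547, 1501 and 1455 FPKM for RAP1B and 803, 797 and 836 FPKM for RAP1A from Holstein through Jersey to Cholistani, each nearly level. RAP2A had 49.1, 57.2 and 27.2 FPKM (log2 ratios of -0.83 against Holstein and -1.05 against Jersey). RHEB, which activates mTORC1, had the highest Cholistani to taurine ratio of the list among genes with at least 50 FPKM in some library, with 59.0, 66.7 and 121 FPKM, and RAP2C followed with 179.63, 175 and 195 FPKM. RAP1GDS1, a chaperone-like exchange factor for small GTPases that binds DIRAS proteins, had 341, 325 and 268 FPKM. The names DIRAS1 and DIRAS3 stood on no model and these genes were not analysed here. Without DIRAS2 the median log2 ratio of the list was -0.22 against Holstein and 0.01 against Jersey, beside 0.15 and 0.12 over all models.

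In the Wnt pathway 3 receptor genes were lower in Cholistani, beside WLS. Of 68 genes listed, 42 were found and 18 had a value. Leaving out WLS, which was selected for this, 3 of 17 were lower than both taurine values by at least 2-fold, beside 8.89% of all models, and 0 were higher. Of all 18, WLS included, 4 were lower than in Holstein, 2 with a pseudocount of 10 FPKM and 7 with equal FPKM sums. Over all 15284 models the numbers were 2099, 1264 and 4199. With a pseudocount of 10 FPKM the genes left were WLS and FZD5, while RYK and FZD7 fell short of 2-fold against Holstein. FZD5, a Frizzled receptor, had 109, 113 and 29.7 FPKM, again in the order Holstein, Jersey, Cholistani, with log2 ratios of -1.84 and -1.89. RYK, a receptor tyrosine kinase-like Wnt receptor, had 66.7, 67.3 and 29.2 FPKM, with log2 ratios of -1.16 and -1.18. FZD7 was scarce, at 8.73 FPKM in Holstein and 12.4 FPKM in Jersey, with a listed 0 in Cholistani. These were all 3 of the receptors with a value, as another 4 were listed at 0 everywhere and 8 were not found by name.

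The other Wnt pathway genes measured in all libraries differed from both taurine values by less than 2-fold on the deposited scale. Of the retromer genes, whose products return Wntless to the Golgi, VPS35 had 346, 332 and 229.9 FPKM (log2 ratios of -0.59 and -0.53), VPS26A 247, 248 and 257 FPKM, VPS29 461, 556 and 628 FPKM, and the sorting nexin gene SNX3 917, 833 and 821 FPKM in Holstein, Jersey and Cholistani. Downstream, CTNNB1, encoding beta-catenin, had 468, 455 and 432 FPKM. LEF1, a transcription factor that binds beta-catenin and is well known in lymphocytes, had 735, 564 and 919 FPKM, and AXIN1, a scaffold of the destruction complex, 129, 149 and 186 FPKM. The ligands themselves were scarcely listed: of 15 Wnt genes found, 14 were at 0 in every library, and WNT5A had 11.6 FPKM in Jersey only. All 5 secreted inhibitor genes found were at 0 as well. PORCN and TCF7 were not found by name. The median log2 ratio of the pathway without WLS was -0.15 against Holstein and -0.06 against Jersey.

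Of the ADAM family and its partners, 31 genes were listed, 21 found and 10 measured above 0. ADAM11 itself was selected for its low Cholistani value. Of the other 9, 1 (ADAM28) was lower than both taurine values by at least 2-fold, beside 8.89% of all models. ADAM28 was scarce, with 2.62 and 3.06 FPKM in Holstein and Jersey and a listed 0 in Cholistani. More abundant than ADAM11 were 3 other members. ADAM10, a widely expressed sheddase, had 295, 236 and 133 FPKM (log2 ratios of -1.14 and -0.82), and ADAM17, which releases TNF, had 157, 120 and 97.7 FPKM (-0.68 and -0.29). ADAM15 had 216, 243 and 272 FPKM. ADAM22 was listed at 0 in all libraries, as were LGI1, LGI2 and LGI3, whose products bind ADAM11 and ADAM22. ADAM8, ADAM23 and LGI4 were not found by name. The inhibitors TIMP2 (1378, 809 and 1188 FPKM), TIMP1 (786, 597 and 781 FPKM) and TIMP3 (112, 89.2 and 119 FPKM) were lower in Jersey than in the other libraries. Without ADAM11 the median log2 ratio was -0.21 against Holstein and 0.00 against Jersey.

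**Figure D3:**
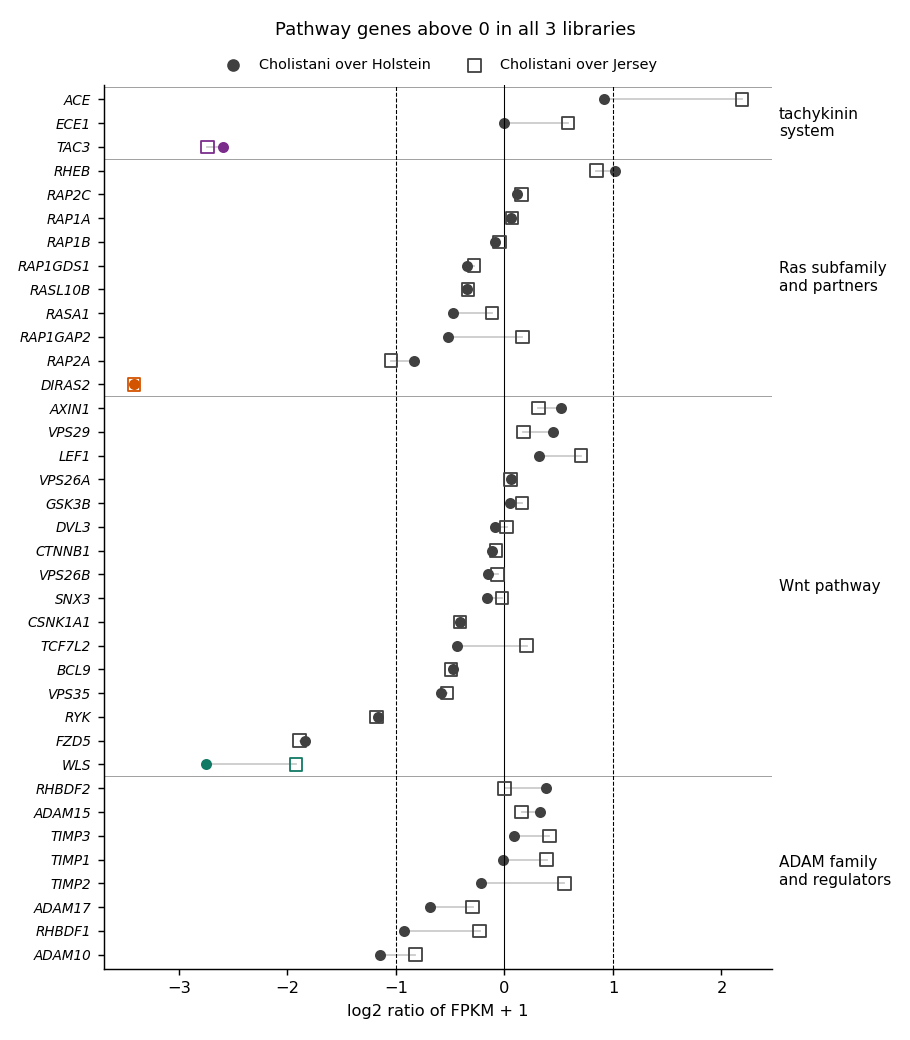
Log2 ratios of FPKM + 1 of Cholistani over Holstein (filled circles) and over Jersey (open squares) for the genes of the 4 pathway lists with a value above 0 in all 3 libraries, dashed lines marking a 2-fold ratio. TAC3, DIRAS2 and WLS (coloured) lie at the low end of their lists, followed in the Wnt pathway by FZD5 and RYK, and most other genes lie between the dashed lines.

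The 4 genes lie on different chromosomes, 5, 8, 3 and 19, and no other model overlapped any of their spans. The nearest models differed from them in level, while both direct neighbours of TAC3 were also lowest in Cholistani. Next to TAC3, MYO1A, 5003 bases before it, had 1.71, 3.72 and 0 FPKM, and ZBTB39, 13899 bases after it, had 23.4, 17.5 and 6.82 FPKM in the order Holstein, Jersey, Cholistani. The nearest model before DIRAS2, named only by a protein entry, had 1428, 1434 and 998 FPKM, and the unnamed model after it had 49.4 FPKM in Cholistani and was at 0 in the taurine libraries. Both direct neighbours of WLS, among them the retinal isomerase gene RPE65, were at 0 in every library. The direct neighbours of ADAM11 were at 0 as well, except that DBF4B, a model of the same span as the unnamed one before it, had 4.92 FPKM in Jersey.

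Models with the most similar profile were sought among 5334 models with a single gene name and at least 50 FPKM in some library, by the Euclidean distance of centred log2(FPKM + 1) over the 3 libraries. With 3 points per profile this likeness is a description. Nearest to TAC3 was TGFB2, a transforming growth factor gene, with 84.3, 91.2 and 13.1 FPKM (distance 0.03), followed by COX4I1 (0.10) and GNG11, listed as GBG11_BOVIN, a G protein gamma subunit gene with 4440, 4393 and 829 FPKM (0.24). Another model of that name, on chromosome 3, had 4748, 5293 and 1815 FPKM, with log2 ratios of -1.39 and -1.54. DIRAS2 had no close match. The nearest was ALAS2, listed as HEM0_BOVIN, an enzyme gene of red cell precursors, with 536, 363 and 32.3 FPKM (0.47), then COX4I1 (0.52) and TAC3 itself (0.62). For WLS the nearest were SLC24A3, an ion exchanger gene with 108, 56.4 and 15.0 FPKM (0.07), the open reading frame listed as CS071_BOVIN with 411, 259 and 58.7 FPKM (0.15), and the transcription factor gene KLF9 with 77.1, 49.7 and 13.4 FPKM (0.22). The nearest to ADAM11 were a pair of histone H4 loci (0.49 and 0.57) and ZNF865 (1.18), all listed at 0 in Cholistani. Histone loci are measured here from polyadenylated RNA with reads kept that align to several places. TGFB2, COX4I1 and the model CS071_BOVIN overlap other models, so their values may include shared fragments.

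Blood cell markers were compared because in bulk leukocytes fewer cells of a type and less RNA per cell cannot be told apart. Of 5 genes that mark leukocytes in general 4 were found, and CORO1A, LAPTM5, CD53 and CD37 summed to 26439, 25858 and 42119 FPKM in Holstein, Jersey and Cholistani. Platelet markers were lower in Cholistani in sum. Of 12 listed, 8 had a value and summed to 6572, 4869 and 1568 FPKM in the same library order. TUBB1 (4430, 2997 and 551 FPKM) made up the largest part of the taurine sums and shares its span with a merged model. GP1BA and GP5, subunits of the platelet adhesion receptor, were at 5.98 and 9.39 FPKM in Holstein and at 0 in Jersey and Cholistani. Against Holstein 6 of the 8 were at least 2-fold lower in Cholistani and 1 higher, and against Jersey 2 were lower, TUBB1 and CLU (941, 668 and 118 FPKM). The platelet chemokine gene PPBP was nearer to level, at 821, 939 and 621 FPKM, and GP9 was higher in Cholistani, at 84.5, 104 and 190.04 FPKM. With equal FPKM sums the log2 ratio of the platelet sum to Holstein was -2.74 in place of -2.07. The part of platelet RNA in the difference was not tested.

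Red cell markers gave a mixed picture. Of 13 listed, 7 were found and 4 had a value, summing to 682, 506 and 223 FPKM in the same library order, and AHSP and CA1 were at 0 in each. Of these 4, 2 were lower than both taurine values by at least 2-fold and 1 was higher. ALAS2 was far lower in Cholistani, and EPB42 had 13.5, 9.94 and 0 FPKM. FECH, the last enzyme of heme synthesis, was near level at 133, 121 and 121 FPKM. The alpha-globin model used, 1 of 2 found, was at 0 in Holstein, 11.5 in Jersey and 69.3 FPKM in Cholistani. The part of red cell precursors was not tested. The 7 T cell markers with a value summed to 5577, 5655 and 11621 FPKM, the 5 B cell markers to 8001, 10104 and 17795 FPKM and the 6 cytotoxic markers to 1259, 1035 and 4225 FPKM, each sum highest in Cholistani. With equal FPKM sums the log2 ratios of these marker sums to Holstein were 0.38, 0.48 and 1.07, against 1.06, 1.15 and 1.75 as deposited. CD3E (2041, 2127 and 6016 FPKM) made up the largest part of the T cell sum, and 2 of the 7 T cell markers were at least 2-fold higher than both taurine values. The B cell sum was carried by CD79A (5281, 6189.51 and 14273 FPKM). PAX5, a B cell transcription factor gene, was lower than both taurine values in Cholistani (296, 381 and 145 FPKM), and the cytotoxic gene GZMA was at 0 there. The 4 monocyte markers summed to 1166, 752 and 1312 FPKM and the 6 neutrophil markers to 36651, 28807 and 31792 FPKM. The neutrophil sum was set by S100A8, S100A9 and S100A12, while the receptor genes CXCR2 (33.5, 7.62 and 598 FPKM) and CSF3R (657, 532 and 1976 FPKM) were higher in Cholistani. With equal FPKM sums the log2 ratio of the monocyte sum to Holstein was -0.51 in place of 0.17, and that of the general leukocyte markers -0.01 in place of 0.67. Of the rare types, 2 of 8 eosinophil markers (7.60, 46.2 and 23.1 FPKM summed), 2 of 7 basophil and mast cell markers (27.8, 23.8 and 20.4 FPKM, with MS4A2, HDC and GATA2 at 0 throughout) and 2 of 9 plasmacytoid dendritic cell markers (1423, 1949 and 1830 FPKM) had a value. These 3 lists rest on too few genes to describe those cells.

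**Figure D4:**
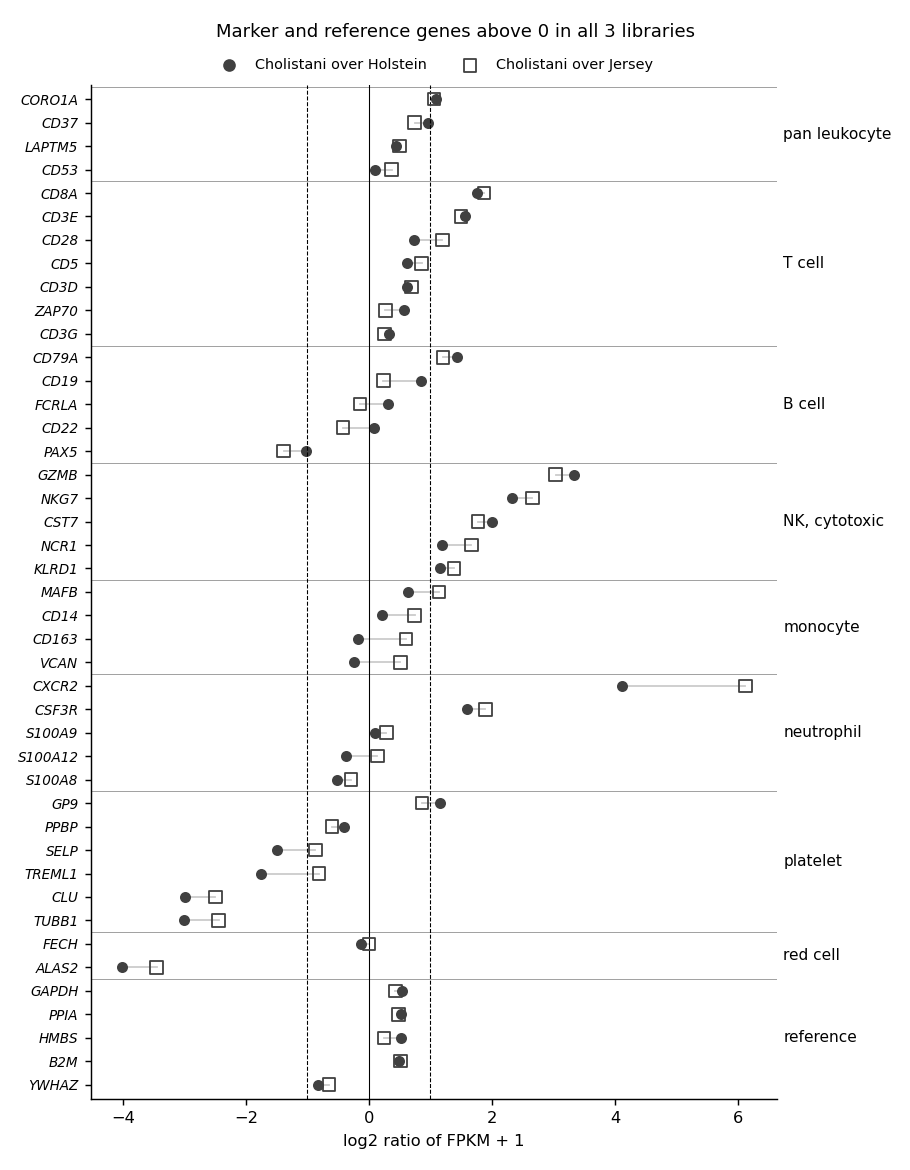
Log2 ratios of FPKM + 1 of Cholistani over Holstein (filled circles) and over Jersey (open squares) for marker and reference genes with a value above 0 in all 3 libraries, dashed lines marking a 2-fold ratio. The platelet genes TUBB1 and CLU and the red cell gene ALAS2 lie far to the left, and most T cell and cytotoxic markers lie to the right of 0.

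TAC3, DIRAS2 and WLS were chosen for low Cholistani values and stayed lower in Cholistani under each of the scalings and pseudocounts tried. Each scaling lowered Cholistani further and the pseudocounts were small beside the taurine values, so only the size of the ratios was examined. The FPKM sums of the libraries were unequal, at 5949770 in Holstein, 6288100 in Jersey and 9518430 in Cholistani, and scaling them to be equal shifted the median log2 ratio of all models between Cholistani and Holstein from 0.15 to -0.43. Dividing by GAPDH, which the study used as reference in real-time PCR and which had 1034, 1119.75 and 1509.88 FPKM, shifted it to -0.30. Both make the Cholistani values relatively lower. Over all alternatives the log2 ratio to Holstein lay between -3.27 and -2.57 for TAC3, between -4.07 and -2.95 for DIRAS2 and between -3.41 and -2.49 for WLS. Against Jersey the ranges were -3.34 to -2.71, -3.99 to -2.95 and -2.51 to -1.70.

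**Figure D5:**
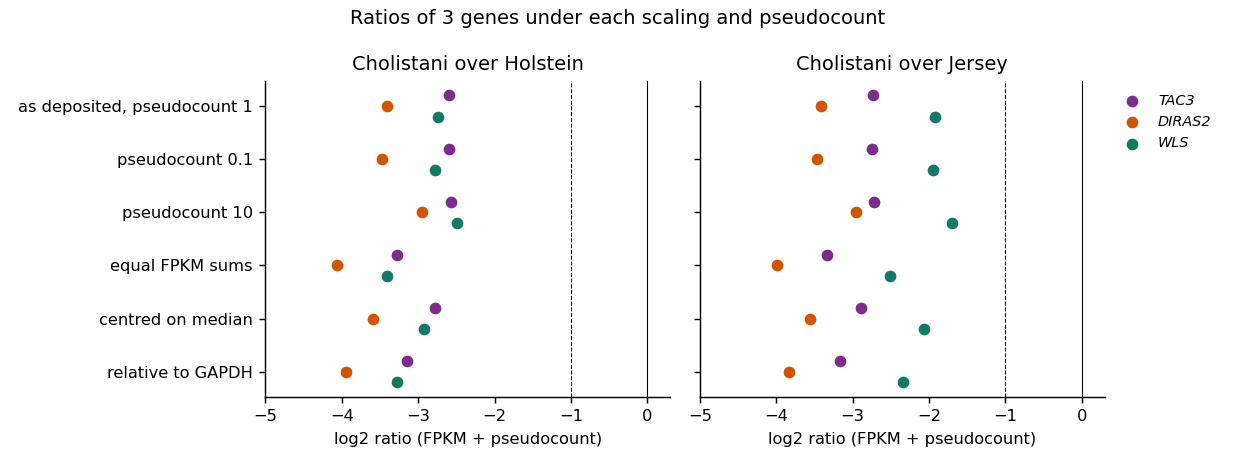
Log2 ratios of TAC3, DIRAS2 and WLS for Cholistani over Holstein (left) and over Jersey (right) under each pseudocount and each scaling of the libraries, the dashed line marking 2-fold lower. Every point lies below -1, the nearest being WLS against Jersey with a pseudocount of 10 FPKM, at -1.70.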

How the data were processed

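Polyadenylated leukocyte RNA was sequenced as 1 library from the pooled blood of each breed. Alignment by the authors was to btau4.0, with TopHat 1.0.14 on Bowtie 0.12.7, and reads with several locations were kept. Cufflinks 0.9.3 then assembled and merged the transcripts (versions per the submitters' processing notes). The deposited unit is FPKM after upper-quartile normalization and a correction of sequence bias by Cufflinks, and no rescaling was applied here. Starts were assumed to be 0-based and printed with 1 added. An estimate was missing in at least 1 library for 5 models, which were left out (2 of them had a Cholistani value above 0).

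Names were matched by gene symbol or protein entry name, never by accession or merged name, and the most abundant model was taken where a name stood on several. Ratios are log2(FPKM + 1) differences, with a threshold of 2-fold. The fragments behind each value are unknown, since the table holds neither counts nor exon lengths, so no interval was computed. The members and the gene lists were chosen with earlier results of these data known. Of 258 list genes (4 pathway lists, 11 marker lists and reference genes), 149 were found. Genes named from the pathway lists were preset family and partner genes, the 2 most abundant, and the 2 highest and 2 lowest in Cholistani with at least 50 FPKM in some library, and others (MME, ACE, KISS1, KISS1R, OPRK1, VPS26A, VPS29, RYK, FZD7, WNT5A, ADAM28 and the markers other than the most abundant) were named after their values were seen, as were the models of at least 1000 FPKM. For each member the 3 nearest profiles and the neighbouring models were named. The alternatives were other pseudocounts, scalings, thresholds and filters and sums over models. Marker sums were rescaled as well, an alternative chosen after seeing the data. The ratio computation was tested on simulated data. Python 3.11.15, numpy 2.4.6 and pandas 2.3.3 were used.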

Additional observations from a re-analysis of the deposited data

How the results depend on the processing

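With sums of FPKM made equal, the log2 ratio to Holstein became -3.27 for TAC3, -4.07 for DIRAS2 and -3.41 for WLS, and that of TAC3 to Jersey -3.34, each further from 0 by more than 1.5 times in fold because the scaling lowers every Cholistani value. No ratio of a member changed its side of the 2-fold threshold. With no replicates to give a spread, a move of 1.5 times was used as the limit. ADAM11 was listed at 0 in Cholistani under each setting, and no ratio was computed. Counts over all models moved more. Models lower in Cholistani than in Holstein numbered 2099, and 1264 with a pseudocount of 10 FPKM, 4199 with equal sums, 3647 relative to GAPDH and 1098 at 4-fold. Models higher numbered 3006, and 1773, 1889 and 1555 with equal sums, relative to GAPDH and at 4-fold. Against Jersey, 2177 were lower, and 1328, 4004, 3322 and 1260 under the same settings in the order of the lower counts, and 2625 were higher, and 1588, 1749 and 1349. The share higher among those that differed from Holstein was 58.9%, and 29.7% with equal sums and 34.1% relative to GAPDH. Against Jersey it was 54.7%, 28.4% and 34.5%. Lower than both were 1358 models, and 709, 2951, 2404 and 681. Between Jersey and Holstein, 718 lower and 1221 higher became 404 and 741 with a pseudocount of 10 FPKM. With equal sums the pathway lists had 6 of 11 Ras, 7 of 18 Wnt and 5 of 10 ADAM genes lower than in Holstein in place of 1, 4 and 3. These counts include the selected member of each list and stand beside 4199 in place of 2099 of all 15284 models. Of 276 values for the lists, 39 moved. No paired analysis was possible because each breed has 1 library. The unknown number of fragments limits what a value listed at 0 can show.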
